A study of Saccharomyces cerevisiae with 10 samples.

Results

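Hexose transporters and glucose sensors were compared between the yeast strains DJ28 and FY23 of Saccharomyces cerevisiae. The set holds 10 genes, taken as the rows whose platform gene symbol or alias is HXT1, HXT2, HXT3, HXT4, HXT5, HXT6, HXT7, SNF3, RGT2 or MTH1. Each was found by symbol, with 1 row per gene, among 5645 named genes on 6277 rows. Total RNA of both strains was hybridised together on each of 10 arrays with 2 dyes. DJ28 was in Cy3 and FY23 in Cy5 on arrays 1 to 5, and DJ28 was in Cy5 and FY23 in Cy3 on arrays 6 to 10. The series title describes a mutant whose Ras/cAMP pathway is constantly active, and the labels name PDE2, which encodes a cyclic AMP phosphodiesterase. Beyond the strain names, the genotypes, the growth medium, the carbon source and the growth phase were not stated by the labels. No label ties the arrays to separate cultures, so p-values reflect array-to-array spread only, part or all of it possibly technical.

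Yeast takes up glucose by facilitated diffusion through a family of related membrane carriers, which differ in their affinity for the sugar. HXT1 and HXT3 encode low-affinity carriers used when glucose is plentiful, HXT2, HXT4, HXT6 and HXT7 encode carriers of higher affinity used when it is scarce, and HXT5 encodes a carrier linked to slow growth and reserve use. SNF3 and RGT2 encode sensors that resemble the carriers but signal instead of transporting, SNF3 for low and RGT2 for high glucose. Their signal leads to the breakdown of Mth1 and Std1, corepressors that act with the repressor Rgt1 on HXT promoters. HXT6 and HXT7 are near-identical in sequence, and the carriers as a family are close enough that a spot of one may hybridise with RNA of another.

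Most members of the set had lower point estimates in DJ28 than in FY23, but none passed the test, and the differences were small. Of the 10 genes, 9 had enough values to be tested, and of these 8 had a negative log2 difference and 1, MTH1, a positive one. The median of the 9 differences was -0.24, and the median over all 5642 genes tested was 0.03, with 2475 negative differences. By limma's moderated test with Benjamini-Hochberg adjustment over all genes, 0 of 9 members were lower and 0 were higher at an adjusted p below 0.05. The background share called was 0.461% lower and 0.0886% higher. At an unadjusted p below 0.05, 4 members were lower (RGT2, SNF3, HXT6 and HXT2) and 0 were higher, where 7.39% of all genes were lower and 5.96% higher by that measure. Values of most members are correlated across replicates, so these counts are descriptions and not a test of the set. The smallest adjusted p in the set was 0.295.

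The direction of these values is likely but not settled. The deposited values are log2 ratios of the 2 dyes, and no label or header says which dye is the numerator. Red over green was used, because PDE2 is then lower in DJ28 (log2 difference -1.96 ± 0.17, SE, 8 of 8 replicates), and losing this enzyme is known to raise cyclic AMP. This assumes that DJ28 is the mutant. With green over red, every sign of a log2 value and each higher or lower count given here, above and below, would flip. Sizes, p-values and values of r would stay. The ratios carry no level, so the abundance of one carrier cannot be set against that of another.

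Arrays 6 and 7 agreed far more closely than any other pair (r = 0.988 against at most 0.694), so they were averaged and entered once. Of the 9 replicates, 5 had DJ28 in Cy3 and 4 had it in Cy5. Arrays 1 and 2 are sparse, with 2230 and 4342 values of 6277, and they hold 7 and 8 of the 10 members. Arrays 4, 5, 9 and 10 are the ones with cells at an upper limit of the values. No label names a batch, and results are also given within these 4 arrays and within the remaining ones. No cell of a member lay at the limit. Replicate values below are log2 DJ28 over FY23 ratios, centred on the median of the array.

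Among the low-affinity carriers, HXT1 (YHR094C) read 0.19, 0.15, -0.74, -0.33 and -0.37 on arrays 1 to 5, where DJ28 was in Cy3. It read -0.18 on arrays 6 and 7 together, and 0.02, -0.41 and -0.39 on arrays 8, 9 and 10, where DJ28 was in Cy5. Array 3 was the lowest, arrays 4, 5, 9 and 10 lay close together, and arrays 1, 2 and 8 lay at or above 0. The log2 difference of HXT1 was -0.23 ± 0.11 (SE, 9 replicates, limma adjusted p = 0.401), with a 95% interval from -0.48 to 0.02. HXT3 (YDR345C), the other low-affinity carrier, ranged from -0.68 on array 3 to 0.17 on array 8, with a median of -0.28. Its difference was -0.16 ± 0.11 (SE, 9 replicates, limma adjusted p = 0.53), the smallest in size of the 6 carriers tested, with an interval from -0.40 to 0.08.

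**Figure D1:**
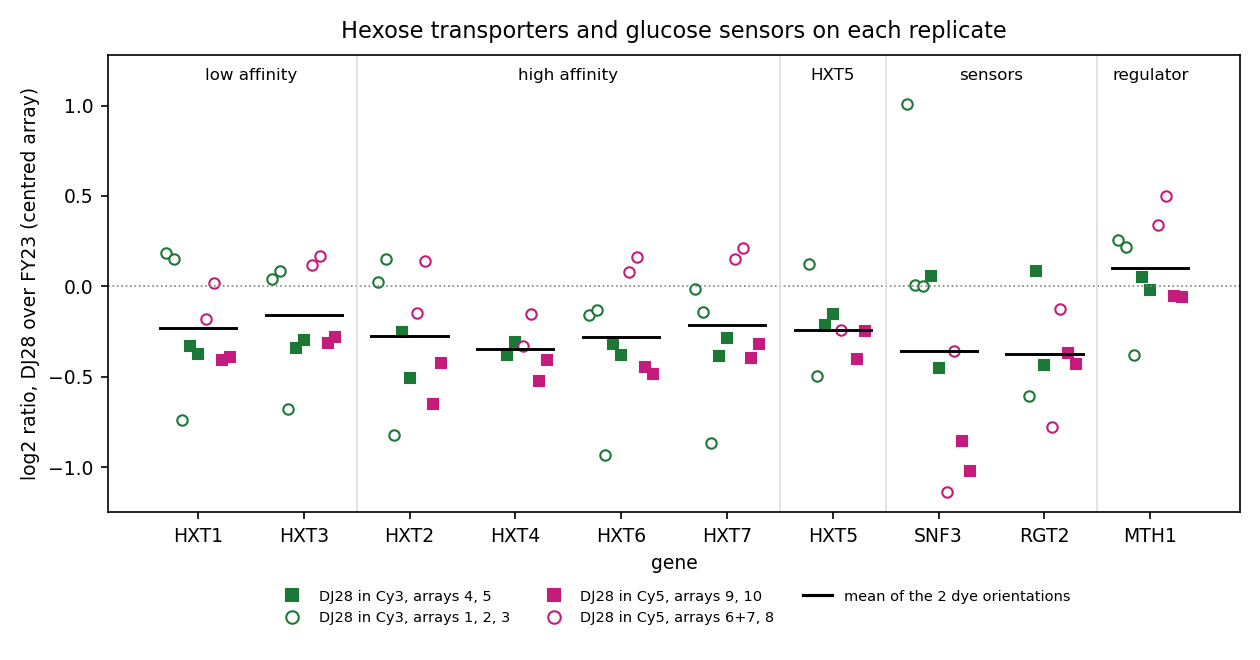
Log2 ratio of DJ28 over FY23 (vertical axis, arrays centred on their median) for each of the 10 genes on each replicate; colours mark the dye orientation, filled squares arrays 4, 5, 9 and 10, open circles the remaining arrays, and black lines the mean of the 2 orientation means. For the carriers the filled squares cluster below 0, from -0.65 to -0.15, while the open circles spread on both sides of 0, with array 3 the lowest for 6 of them.

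The high-affinity carriers gave similar values. HXT6 (YDR343C) read -0.16, -0.13, -0.93, -0.32 and -0.38 on arrays 1 to 5. It read 0.08 on arrays 6 and 7 together, and 0.16, -0.45 and -0.49 on arrays 8, 9 and 10. It was below 0 on 7 of 9 replicates, and its log2 difference was -0.28 ± 0.12 (SE, limma adjusted p = 0.345), a 1.21-fold lower ratio with an interval from -0.53 to -0.02. HXT7 (YDR342C) had a difference of -0.21 ± 0.11 (SE, limma adjusted p = 0.434) and was below 0 on the same number of replicates. HXT2 (YMR011W) had a difference of -0.28 ± 0.13 (SE, limma adjusted p = 0.373), with values from -0.82 on array 3 to 0.15 on array 2.

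HXT4 (YHR092C) could not be tested, because it had no value on arrays 1, 2 and 3 and so only 2 values with DJ28 in Cy3. It read -0.38 and -0.31 on arrays 4 and 5. It read -0.33 on arrays 6 and 7 together, and -0.15, -0.53 and -0.41 on arrays 8, 9 and 10. All 6 values were negative, but arrays 1, 2 and 3 lack a value. On arrays 1 and 2 most carriers lay near or above 0, and on array 3 the other 6 carriers had their lowest values, from -0.93 to -0.50. HXT5 (YHR096C), the carrier of slow growth, was below 0 on 6 of 7 replicates. Its difference was -0.24 ± 0.11 (SE, limma adjusted p = 0.384), and its values ran from -0.50 on array 3 to 0.12 on array 2. On the joined replicate of arrays 6 and 7 it rests on array 7 alone. Of the 9 tested members none was below 0 on every replicate, which held for 1.33% of all genes.

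HXT6 and HXT7, the near-identical pair, lie next to each other on the chromosome, followed by YDR344C and HXT3. Their values differed by at most 0.17 on any replicate, with an SD of the difference of 0.07 and r = 0.976 over 9 replicates. Whether the 2 spots measure 2 transcripts or share one signal was not tested. HXT4, AHT1, HXT1 and HXT5 form a second run of neighbours. HXT4 and HXT5, from that run, had the smallest SD of the difference among the 45 pairs of members, 0.03, but over only 5 shared replicates. Over all 45 pairs r ran from -0.07 to 0.99 with a median of 0.77, and the lowest value was that of HXT7 with SNF3. The values of a pair share arrays, dye and centring.

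The gap between carriers of high and low affinity was small. The mean of HXT2, HXT4, HXT6 and HXT7 was -0.33 over the arrays with DJ28 in Cy3, where that of HXT1 and HXT3 was -0.23. Over the arrays with the dyes reversed the means were -0.22 and -0.16. The high-affinity mean minus the low-affinity mean was -0.16, -0.16, -0.17, 0.00 and -0.03 on arrays 1 to 5. It was -0.03 on arrays 6 and 7 together, and 0.00, -0.14 and -0.07 on arrays 8, 9 and 10. The average of the orientation means was -0.08 (SD 0.07 over single replicates, n = 9). The gap was below 0 on 8 of 9 replicates, but array 8 was only at -0.005, and the exception, array 4, at 0.002. No p is given for the gap, since the members were chosen with results known. HXT4 is counted in the high-affinity mean on the arrays where it had a value, and without it the average was -0.06.

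**Figure D2:**
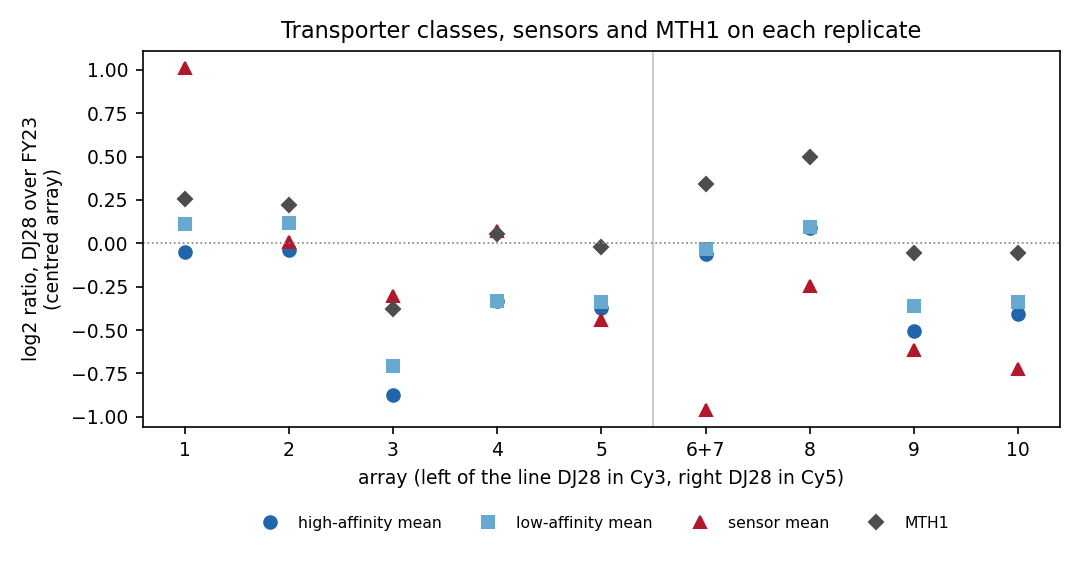
Mean log2 ratio of DJ28 over FY23 (vertical axis, centred arrays) of the high-affinity carriers, the low-affinity carriers and the sensors, and the value of MTH1, on each replicate (horizontal axis, with DJ28 in Cy3 left of the line and in Cy5 right of it). The 2 carrier means move together and lie within 0.17 of each other on every replicate, MTH1 lies above both, and the sensor mean, which is SNF3 alone on arrays 1 and 2, runs from 1.01 on array 1 to -0.96 on arrays 6 and 7.

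The sensors had the largest point estimates in the set. RGT2 (YDL138W), the sensor of high glucose, had no value on arrays 1 and 2 and read -0.61, 0.09 and -0.43 on arrays 3, 4 and 5. It read -0.78 on arrays 6 and 7 together, and -0.13, -0.37 and -0.43 on arrays 8, 9 and 10. It was below 0 on 6 of 7 replicates, and array 4 was the exception. Its log2 difference was -0.37 ± 0.13 (SE, limma adjusted p = 0.295), 1.29-fold lower, with an interval from -0.66 to -0.08, and it ranked 331 of 5642 genes by p.

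SNF3 (YDL194W), the sensor of low glucose, split by dye orientation. With DJ28 in Cy3 it read 1.01, 0.01, 0.00, 0.06 and -0.45 on arrays 1 to 5, a mean of 0.12 ± 0.54 (SD, n = 5). With DJ28 in Cy5 it read -1.14 on arrays 6 and 7 together, and -0.36, -0.86 and -1.02 on arrays 8, 9 and 10, a mean of -0.84 ± 0.34 (SD, n = 4). All 4 replicates of the second orientation were negative, against 1 of 5 in the first. The difference over both orientations was -0.36 ± 0.14 (SE, limma adjusted p = 0.336). The dye effect of SNF3 was -0.48 ± 0.14 (SE), larger than its strain difference, and did not pass either (limma adjusted p = 0.0882). Dye effects of the other 8 tested members lay between -0.06 and 0.13. At an adjusted p below 0.05, 0 of 9 members had a dye effect, where 3.05% of all genes did, and without array 5 SNF3 passed with a dye effect of -0.56 (limma adjusted p = 0.0398).

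MTH1 (YDR277C), the corepressor of the HXT genes, was the 1 member with a positive difference. It read 0.26, 0.22, -0.38, 0.05 and -0.02 on arrays 1 to 5. It read 0.34 on arrays 6 and 7 together, and 0.50, -0.05 and -0.06 on arrays 8, 9 and 10. It was thus on both sides of 0, and its log2 difference was 0.10 ± 0.10 (SE, limma adjusted p = 0.673), with an interval from -0.12 to 0.33. Across replicates its r with the 7 carriers ran from 0.685 with HXT5 (7 replicates) to 0.989 with HXT6 (9 replicates), and was 0.852 with HXT1 and 0.905 with HXT2 (9 replicates each).

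MTH1 nevertheless lay above each of the 7 carriers on every replicate where both had a value. The gap of MTH1 over HXT6 averaged 0.38 (SD 0.08, 9 of 9 replicates) and ran from 0.26 to 0.56. The gap over HXT3 averaged 0.26 (SD 0.08, 9 of 9), and over HXT1 0.33 (SD 0.16, 9 of 9). It was smallest on single replicates for HXT1 and HXT2, at 0.07 for both. Of all 5642 genes tested, 2.87% lay below MTH1 on every shared replicate. The share of genes that lay above all 7 carriers was not computed. The position is not particular to MTH1, since the hexokinase gene HXK2 also lay above each carrier on its 8 replicates. MTH1 was above RGT2 on 6 of 7 replicates and above SNF3 on 6 of 9. This gap was noticed in these values and is a description with no test. It is a difference between ratios within an array and does not say which gene, if any, changed.

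**Figure D3:**
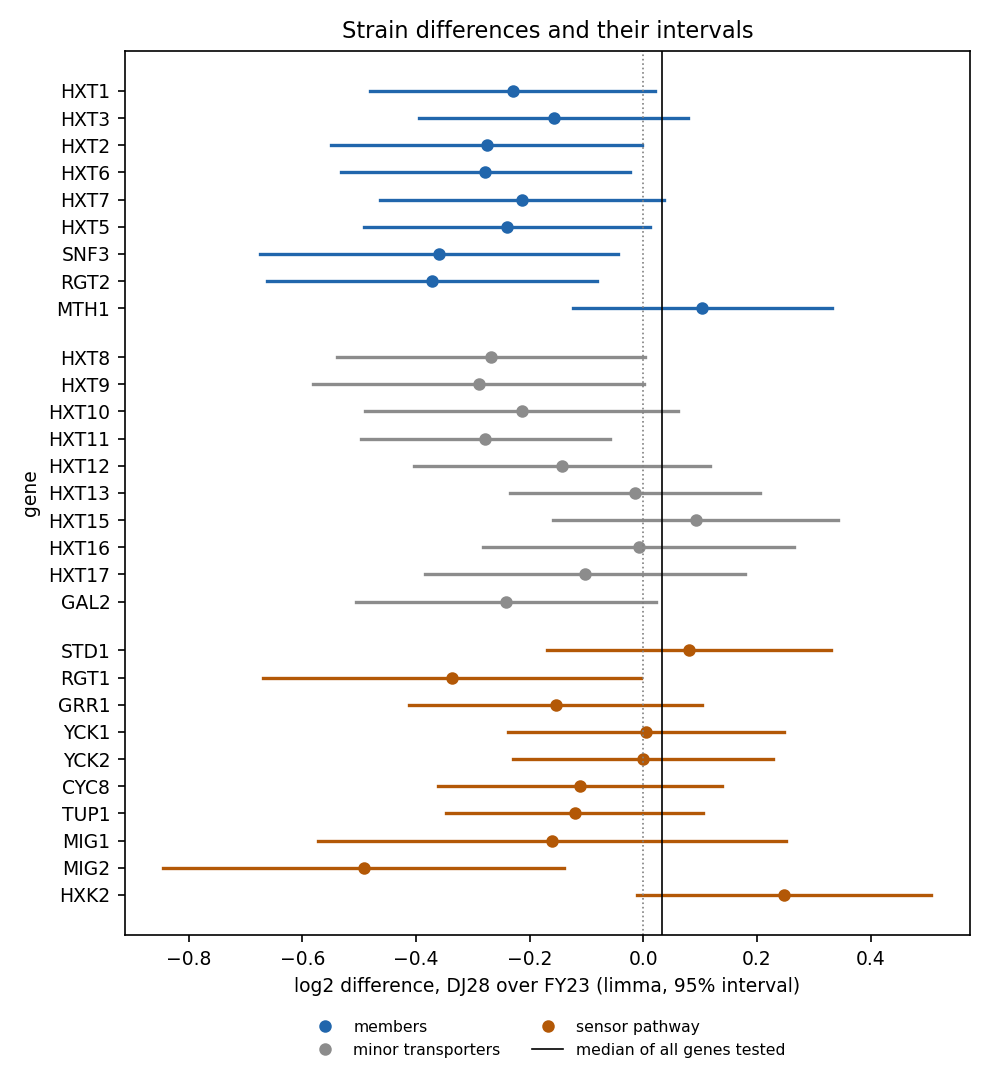
Log2 difference of DJ28 over FY23 (horizontal axis) with its 95% interval from limma. Shown are the 9 tested members, the 10 tested minor transporters and the 10 tested genes listed for the sensor pathway and glucose repression. The black line marks the median of all genes tested. Among the members the intervals of SNF3, RGT2, HXT6 and HXT2 lie below 0, and MTH1 is the 1 member right of 0.

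In order of the fitted difference the members ran RGT2, SNF3, HXT6, HXT2, HXT5, HXT1, HXT7, HXT3 and MTH1. Differences of neighbours in this order were smaller than their standard errors, except between HXT3 at -0.16 and MTH1 at 0.10, and the 95% intervals of all 9 overlapped. Over the 9 tested members the intervals reached down to -0.68, the lower end for SNF3, and up to 0.33, the upper end for MTH1.

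Within arrays 4, 5, 9 and 10, which hold 2 arrays of each orientation, all 10 members could be fitted and all 10 differences were negative, with a median of -0.36 against 0.00 over 5492 genes. HXT1 ran from -0.41 to -0.33 on these 4 arrays, HXT3 from -0.34 to -0.28, HXT7 from -0.40 to -0.29 and HXT6 from -0.49 to -0.32. The 7 carriers were each negative on all 4 arrays, which held for 10.3% of genes. None of the 10 members passed over all genes (0 of 10, where 0.546% of genes were called in either direction, limma). The smallest adjusted p was 0.117, that of SNF3, and HXT6 had -0.41 ± 0.09 (SE, limma adjusted p = 0.124). SNF3 had the widest spread of the members on these 4 arrays, from -1.02 to 0.06, and RGT2 ran from -0.43 to 0.09. On array 4 SNF3, RGT2 and MTH1 were each above 0. At an unadjusted p below 0.05 (limma), 8 of 10 members were lower, where 10.4% of genes were. Values of the members are not independent (median r of a pair 0.77 over all replicates), so this count is a description and not a test of the set.

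Within the remaining arrays 7 members could be fitted, 6 of them negative, with a median of -0.11 against 0.08 over 4199 genes, and 0 passed at an adjusted or an unadjusted p below 0.05 (limma). Of all genes in that fit, 0% passed after adjustment and 11.6% at an unadjusted p below 0.05, in either direction. HXT6 had -0.14 ± 0.17 and HXT3 -0.02 ± 0.16 (SE) there. MTH1 had -0.02 ± 0.09 within arrays 4, 5, 9 and 10 and 0.23 ± 0.16 within the remaining arrays (SE). The difference between the array sets was tested in 1 model, chosen after the data were seen. It was negative for all 7 members, from -0.36 for SNF3 to -0.25 for MTH1, and also for the median of the 3948 genes in that fit, at -0.11. It passed for 0 of 7 members, with adjusted p from 0.686 to 0.692 (limma), and for 0% of all genes. The 2 sets are thus not shown to differ in the strain difference of any member.

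**Figure D4:**
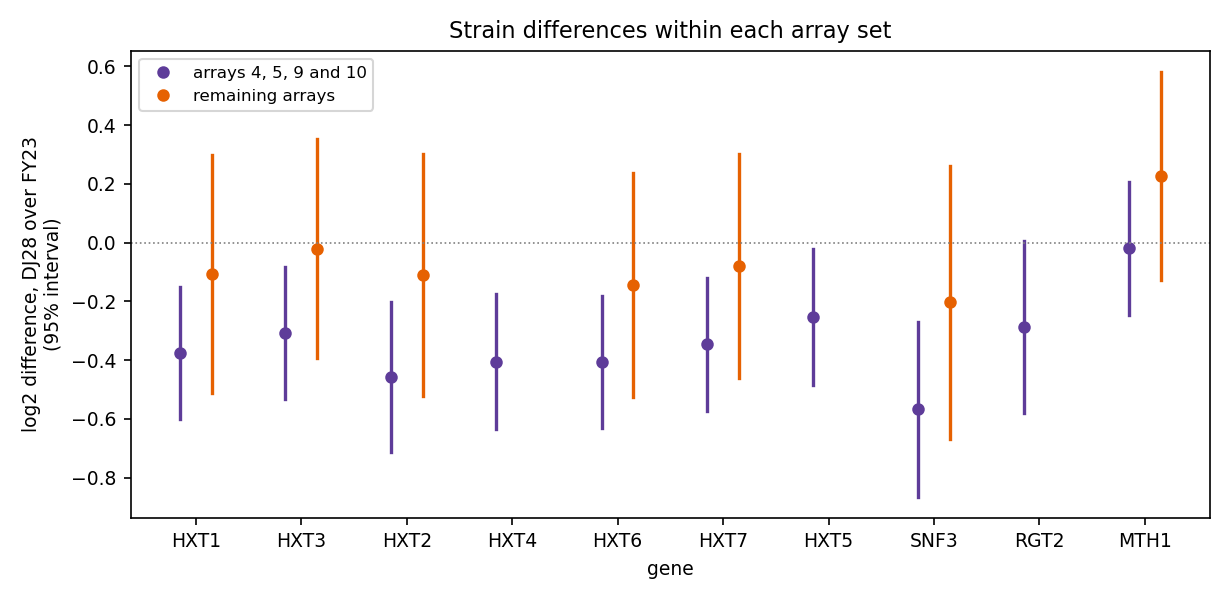
Log2 difference of DJ28 over FY23 (vertical axis) with its 95% interval from limma for each member within arrays 4, 5, 9 and 10 (left of each pair) and within the remaining arrays (right), where HXT4, HXT5 and RGT2 had too few values. Within arrays 4, 5, 9 and 10 the points run from -0.57 for SNF3 to -0.02 for MTH1, and the intervals of the remaining arrays are wider and each span 0.

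Most carriers of the wider family also had negative differences, some of them near 0, and none was called. HXT8 to HXT17 and GAL2, minor or specialised hexose carriers, were listed for comparison, and 10 of these 11 genes were tested. Of these, 9 differences were negative, with a median of -0.18, where 2475 of all 5642 were negative. None passed (0 of 10, limma), where 0.461% of all genes passed lower and 0.0886% higher. HXT13 and HXT16 lay near 0, at -0.015 and -0.008, and HXT15 was positive, at 0.09. HXT13, HXT15, HXT16 and HXT17 had means above 0 with DJ28 in Cy3 and below 0 with DJ28 in Cy5. The 2 largest were those of HXT9, at -0.29 ± 0.13, and HXT11, at -0.28 ± 0.10 (SE, limma adjusted p = 0.373 and 0.295). HXT11 was below 0 on 9 of 9 replicates, and 1.33% of all genes were below 0 on every replicate with a value. HXT8 followed HXT2 with r = 0.970 and an SD of the difference of 0.09 over 9 replicates. DPS1, which is not a hexose carrier, followed HXT2 about as closely, with r = 0.968 over 9 replicates. Cross-hybridisation within the family could give spots a common value, and its part was not tested, as no spotted sequences were used here.

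Genes listed for the sensor pathway and for glucose repression also gave 0 calls, where 0.461% of all genes were called lower and 0.0886% higher. The list holds the corepressor STD1, the repressor RGT1, the ubiquitin ligase subunit GRR1, the casein kinases YCK1 and YCK2, the general corepressors CYC8 and TUP1, the glucose repressors MIG1, MIG2 and MIG3, and the hexokinase HXK2. Of these 11 genes 10 were tested, 7 with a negative and 3 with a positive difference, and the median was -0.12. MIG2 had the largest difference, -0.49 ± 0.16 (SE, limma adjusted p = 0.268), and was below 0 on 6 of 7 replicates. Its mean was -0.17 with DJ28 in Cy3 (3 replicates) and -0.82 with DJ28 in Cy5 (4 replicates). The dye effect of MIG2 was -0.325 ± 0.157 (SE, limma adjusted p = 0.243). RGT1 had -0.34 ± 0.15 (SE, 6 replicates, limma adjusted p = 0.373). Named after their values were seen, STD1, the partner of MTH1, had 0.08 ± 0.11, and HXK2 had 0.25 ± 0.12 (SE, limma adjusted p = 0.772 and 0.387).

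The genes most like each member across replicates were named by Pearson's r over at least 8 shared replicates, as a description. They were DRS1 (0.989) and YDR341C (0.950) for HXT1, HXT8 (0.970) and DPS1 (0.968) for HXT2, and GND1 and SER1 (both 0.972) for HXT3. For HXT6 they were MTH1 (0.989) and COS1 (0.977), for HXT7 SER1 (0.990) and HXT6 (0.976), and for MTH1 HXT6 and HXT7. SNF3 was most like FEN2 (0.971) and CRT10 (0.960), neither of them a hexose carrier. HXT5 and RGT2 had 7 replicates each and were not compared.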

How the data were processed

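Values deposited by the authors are signed and end at 16.61, the base-2 logarithm of 100000, and were therefore taken as log2 dye ratios. The authors' background correction, normalization and filters are not stated in the labels or headers. Rows were named through the platform annotation and the gene table of assembly R64 (5659 of 5663 named rows matched, 614 unnamed), which gave names and neighbours only, since no genome build is stated for the array. After blanking the 13 cells at the limit, array medians were subtracted and rows of a gene averaged. Genes with values on at least 3 replicates of each orientation entered a model with dye and strain terms (lmFit and eBayes of limma 3.58.1, R 4.3.3), whose p-values were adjusted by Benjamini-Hochberg over all 5642 genes. The threshold was 0.05. Fits within an array set needed 2 replicates of each orientation. The number of arrays limits precision, and the median standard error was 0.13. The fit was run on simulated data whose noise was independent between genes and arrays. Movement shared by genes within an array was not simulated, so that run does not bear on it. Members, lists and tests were chosen with earlier results of these data known. Named genes were all members, genes of the 2 comparison lists past the test or otherwise the 2 largest, the 2 most alike genes per member, and PDE2, while STD1 and HXK2 were named after their values were seen. No column of values was left unused.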

Additional observations from a re-analysis of the deposited data

How the results depend on the processing

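No member passed the test of the strain difference under any of 25 other settings, and the smallest adjusted p of a member was 0.069, with array weights. Of 214 differences recomputed for the 9 tested members, 212 kept their sign. The exceptions were SNF3, at 0.12 for DJ28 in Cy3 alone, and MTH1, at -0.02 within arrays 4, 5, 9 and 10. With each array left out in turn, HXT6 ran from -0.34 to -0.21, SNF3 from -0.47 to -0.29, RGT2 from -0.42 to -0.37, HXT3 from -0.20 to -0.10 and MTH1 from 0.05 to 0.15. HXT4, which had too few values, had -0.35 with no filter. The count of members with a dye effect was 1 with all 10 arrays counted apart, 5 without centring, where an array's own offset enters the dye term, and between 0 and 1 with single arrays left out. The gap between high- and low-affinity carriers stayed between -0.10 and -0.06 in every setting. The whole-table count of 31 genes ran from 0, within the remaining arrays or with DJ28 in Cy3 alone, to 156 with array weights. No paired analysis was possible because the labels number the arrays in 1 run and the 2 orientations share no replicate numbers.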
